A study of Homo sapiens with 6 samples.

Results

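The genes described here are 9 abundant cytoskeletal genes: the cytoplasmic actins ACTB and ACTG1, the α-tubulins TUBA1A, TUBA1B and TUBA1C, the β-tubulins TUBB and TUBB4B, and the actin-binding proteins cofilin (CFL1) and profilin (PFN1). Their clusters were chosen by position alone: a cluster belonged to a gene if it shared 1 nt or more with one of its GENCODE exons and lay on the strand of the gene. This gave 309 of the 244645 clusters of 6 libraries. Of the 9 genes, 8 had a cluster in an IGF2BP3 library, among 11988 genes with one, and TUBB had none. Of the 309 clusters, 0 also lay on an exon of another gene of that strand.

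Actin polymerises into filaments that give a cell its shape and drive its movement. Profilin delivers actin monomers to growing filaments, and cofilin severs and disassembles them. Tubulin α/β dimers form the microtubules. IGF2BP3 belongs to a family of mRNA-binding proteins with RRM and KH domains. A paralog, IGF2BP1, is known for binding the zipcode, a stretch just downstream from the ACTB stop codon that takes the mRNA to the cell edge. Actin and tubulin genes are also known for having many processed pseudogenes, and the 3 α-tubulin genes encode nearly the same protein.

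In PAR-CLIP, 4-thiouridine (4sU) in cellular RNA is crosslinked to the bound protein by UV light, and the crosslinked base is then read as C in place of T. All libraries came from HCT116, a human colorectal carcinoma line, here with the genotype Tet-OsTIR1-PURO. The cells were grown for 15 h with 100 µM 4sU and irradiated at 365 nm with 0.15 J/cm2, in 5 dishes per condition. The polyclonal antibody against IGF2BP3 also recognises the paralog IGF2BP2 in part, per the study, so that clusters of the paralogs cannot be told apart here.
Each library was digested in the lysate and again on beads, and its concentrations are written in that order in U/µL. There were RNase I libraries at 0.05/0.05, 0.1/0.025 and 0.05/0.025, RNase T1 libraries at 1/1 and 0.25/0.25, and a control with IgG and RNase I at 0.1/0.025. RNase I cuts after any base, whereas RNase T1 cuts after G. RNA of RNase I 0.05/0.05 and RNase T1 1/1 was electroeluted from the gel, and RNA of the other IGF2BP3 libraries came from crushed gel. Gel extraction therefore cannot be told apart from the on-beads concentration of RNase I, nor from either concentration of RNase T1. The crushed-gel RNase I libraries differed in the lysate concentration alone. There was 1 library per condition, so no comparison below has a replicate check. All intervals are 95% intervals that cover counting error only, and a ratio compares 2 libraries, not 2 conditions. The IGF2BP3 libraries held between 182448 and 2362467 cluster reads, and the IgG library held 324. Levels are given as CPM, the reads in the clusters of a gene per 1000000 cluster reads of the library.

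The zipcode of ACTB is shown first, with the same stretch of ACTG1 and with stretches of 30 nt from the RNase T1 1/1 clusters that held the most reads of TUBA1B, ACTG1 and CFL1. Coordinates are GRCh38, all on the minus strand, and the sequences read 5′ to 3′. Capitals in the first pair mark CGGAC and ACACCC, the elements known from the zipcode. In the next 3, capitals mark the tetramers counted further down, with T for U, where a stretch has any.
ACTB, nt 1 to 30 after the stop codon, chr7:5527718-5527747: gCGGACtatgacttagttgcgttACACCCt
ACTG1, nt 1 to 30 after the stop codon, chr17:81510660-81510689: aCGGACtcagcagatgcgtagcatttgctg
TUBA1B, 3′UTR, chr12:49127845-49127874: gttagattgttttcacttggtgatcatgtc
ACTG1, 3′UTR, chr17:81510245-81510274: cCAGTtgttttgtcttgcgggtctgtcagg
CFL1, 3′UTR, chr11:65854983-65855012: cccccttcccatgctgccaacttctaaccg
The remaining pair shows a place where reads of the α-tubulins could not be told apart. It is the middle of a coding cluster of 139 nt in RNase I 0.05/0.05 whose sequence was the same in both genes, on the minus strand for TUBA1B and on the plus strand for TUBA1C. It held 429 reads at TUBA1B and 428 at TUBA1C.
TUBA1B, coding sequence, chr12:49128624-49128653: cgcccaacctacactaaccttaaccgcctt
TUBA1C, coding sequence, chr12:49272538-49272567: cgcccaacctacactaaccttaaccgcctt

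TUBA1B, an α-tubulin, had 1293 CPM in RNase I 0.05/0.05, 4768 in RNase I 0.1/0.025, 5697 in RNase I 0.05/0.025, 728 in RNase T1 1/1 and 6473 in RNase T1 0.25/0.25. It ranked 5 to 8 among all genes in the crushed-gel libraries, and 57 and 145 in RNase I 0.05/0.05 and RNase T1 1/1. The crushed-gel libraries were the high ones, and their intervals did not overlap those of the electroeluted libraries.
TUBA1C, in the same order of libraries, had 582, 2006, 2359, 245 and 1935 CPM, and TUBA1A had 330, 1040, 1266, 179 and 817 CPM. The 3 α-tubulin genes thus had the same order of libraries at their low end, with RNase T1 1/1 lowest and RNase I 0.05/0.05 next. These genes share much of their coding sequence, and some of their clusters held nearly the same reads. The shared order may therefore not be 3 separate observations.
The β-tubulin TUBB4B was far lower, at 39.4, 92.1, 124, 34.6 and 143 CPM, from 26 to 93 reads per library.

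ACTG1 had 1413, 1541, 1853, 551 and 1913 CPM in that order. ACTB had 404, 509, 635, 154 and 389 CPM. In both actins RNase T1 1/1 was lowest and its interval overlapped that of no other library. The actin regulators varied less. CFL1 had 221, 263, 335, 295 and 543 CPM, and its RNase T1 0.25/0.25 library was the highest. PFN1 had 276, 331, 438, 230 and 329 CPM, and the interval of RNase T1 0.25/0.25, from 251 to 423, overlapped those of all other libraries.

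**Figure D1:**
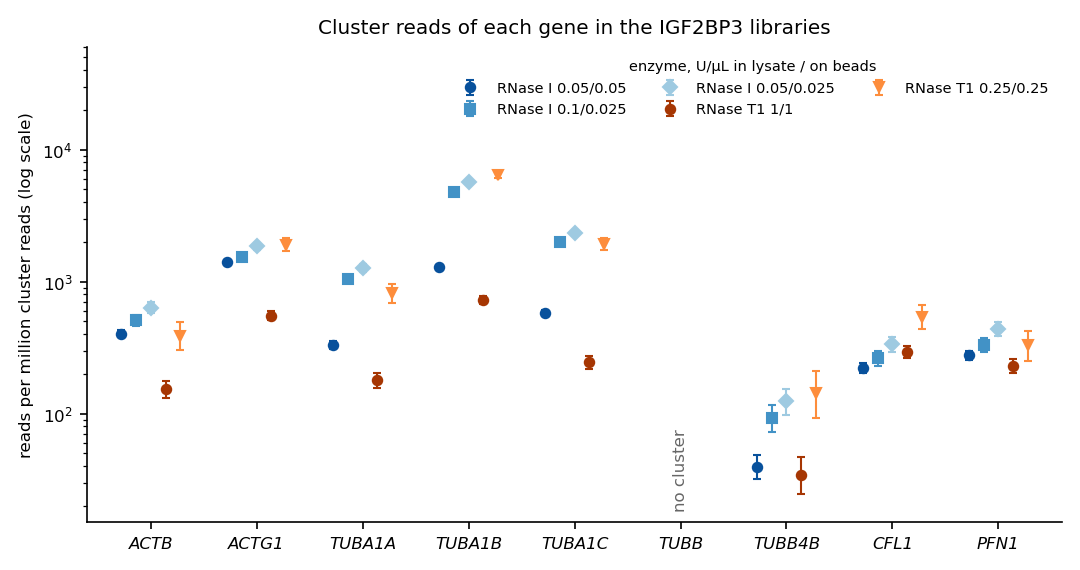
Cluster reads of each gene in the 5 IGF2BP3 libraries, in CPM on a log axis, with points for single libraries and bars for exact Poisson 95% intervals. TUBA1B reached 6473 in RNase T1 0.25/0.25, the electroeluted RNase T1 1/1 library was lowest for all genes with a cluster except CFL1, and TUBB had no cluster.

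Levels per kb of the canonical mRNA take account of mRNA length only. The median over the 5 libraries was 2931 CPM per kb for TUBA1B, 803 for ACTG1, 685 for TUBA1C and 488 for TUBA1A. It was 408 for PFN1, 237 for CFL1, 223 for ACTB and 58.9 for TUBB4B. The order differed between libraries. In RNase I 0.05/0.05 and RNase T1 1/1, PFN1 (342 and 285) was above TUBA1C (206 and 86.9) and TUBA1A (197 and 107), and in RNase I 0.05/0.05 ACTB (223) was above both. The ranges of ACTG1, TUBA1C and TUBA1A over the libraries overlapped, as did those of CFL1 and ACTB. ACTB was below ACTG1 in each of the 5 libraries, at 84.9 to 351 CPM per kb against 287 to 997. RNA levels of the cells were not part of these data, so that a level cannot be divided into binding and abundance.

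Following the study's criteria, a gene counted as a target when 1 of its clusters had more than 10 CPM and more than 0.5 conversion events per read. CPM was taken here over cluster reads, and since the total used in the study is not given in the sources used here, the calls need not be those of the study. In each of the 5 IGF2BP3 libraries 8 of the 9 genes were targets, all but TUBB. Of all genes with a cluster, 45.0% were targets in RNase I 0.05/0.05, 63.3% in RNase I 0.1/0.025, 70.1% in RNase I 0.05/0.025, 49.3% in RNase T1 1/1 and 80.3% in RNase T1 0.25/0.25. The CPM criterion amounted to 23.6 reads in RNase I 0.05/0.05 and to 1.82 reads in RNase T1 0.25/0.25. Counted only from clusters whose whole sequence occurred once in the genome, the targets were 8 in the 3 RNase I libraries, 7 in RNase T1 1/1 (without TUBA1A) and 6 in RNase T1 0.25/0.25 (without TUBA1A and TUBB4B). Counted only from clusters with at least 50% of their 24-mers once in the genome, they were 7, 7, 7, 6 and 5, and TUBA1A was no target in any library.

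The 3′UTR, which follows the stop codon and carries most known IGF2BP sites, took 60.5% of the reads of these genes in RNase I 0.05/0.05 (interval 59.5% to 61.4%) and 69.0% in RNase T1 1/1 (67.2% to 70.7%). In the crushed-gel libraries the share was 54.6%, 52.8% and 64.1%. Among all reads in protein-coding features it was 81.7% to 88.4%, above the value for the 9 genes in each of the 5 libraries. From clusters of the 9 genes with at least 50% of their 24-mers once in the genome it was 88.2%, 90.2%, 87.5%, 90.6% and 91.2%, against 81.7%, 83.4%, 81.9%, 88.4% and 88.3% of all reads, which were not filtered. In the α-tubulins 12.5% to 21.5% of coding 24-mers occurred once, against 69.7% to 87.5% in the 3′UTR. ACTB (40.8% and 26.3%) and TUBB4B (64.2% and 48.4%) were the reverse. The cut itself thus bears on this share, and the filtered values do not show how these genes compare with all reads. The order of assignment matters here, since a cluster that overlapped both features was counted as 3′UTR. With coding sequence first, the share fell to 4.16% in RNase I 0.05/0.05 and 49.2% in RNase T1 1/1.

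The actins divided their reads between both features. Of the ACTB reads, 62.6% lay in 3′UTR clusters in RNase I 0.05/0.05, 70.9% in RNase I 0.1/0.025, 63.8% in RNase I 0.05/0.025, 62.9% in RNase T1 1/1 and 100% in RNase T1 0.25/0.25, the last from 71 reads in 4 clusters. On the canonical transcript alone, 15.5% of those 71 reads were coding. ACTG1 had 75.7%, 80.7%, 80.7%, 75.9% and 86.0%. Its RNase I 0.05/0.05 reads were dominated by a cluster of 779 nt and 2528 reads that covered the whole 3′UTR and reached into the coding sequence. In RNase T1 1/1 the ACTG1 cluster with the most reads was 246 nt long (chr17:81510052-81510297, 397 reads), and RNase T1 0.25/0.25 had one with the same 3′ end, with 228 reads.
Clusters covered 86.8% of the ACTB coding sequence in RNase I 0.05/0.05 and 25.3% in RNase T1 1/1, and 79.5% and 42.3% of its 3′UTR. For ACTG1 they covered 92.5% and 41.3% of the coding sequence, and 100% and 65.4% of the 3′UTR. Of the ACTB 3′UTR positions under an RNase T1 1/1 cluster, 96.9% also lay under an RNase I 0.05/0.05 cluster, where 79.5% of all its 3′UTR positions did. For ACTG1 the value was 100%, which was fixed by the full cover of its 3′UTR in RNase I 0.05/0.05. RNase I 0.05/0.05 held 2362467 cluster reads and RNase T1 1/1 held 1157194.

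CFL1 and PFN1 had most reads in 3′UTR clusters. CFL1 had 99.4% of its reads in 3′UTR clusters in RNase I 0.05/0.05 and 100% in the other 4 libraries, and PFN1 had 93.3% to 100%. With coding sequence first, both fell to 0% in RNase I 0.05/0.05, because the cluster with most of the reads (520 nt in CFL1, 298 nt in PFN1) crossed the stop codon. Dividing the reads of a cluster by the length it had in each feature gave CFL1 96.0% and PFN1 67.0% in that library. In RNase T1 1/1 CFL1 had 100% under either order, whereas PFN1 fell from 95.1% to 18.8%. The CFL1 coding sequence of 501 nt had clusters over 9.0% of its length in RNase I 0.05/0.05 and over none in RNase T1 1/1.

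The α-tubulins differed. TUBA1B had 51.3% to 66.6% of its reads in its 3′UTR of 176 nt, which clusters covered from 84.7% to 100% in the 5 libraries. Per kb, its 3′UTR had 2501 to 22603 CPM and its coding sequence 213 to 2118 CPM. TUBA1C had 0% to 2.84% of its reads in its 3′UTR of 1373 nt, of which clusters covered at most 6.7%. Of its coding 30-mers, however, 28.1% occurred once in the genome, against 82.8% of those of its 3′UTR. Whether its coding reads came from its own mRNA or from TUBA1B cannot be told apart here, so this share may not be its own. TUBA1A had 68.3% to 91.0% under the rule used here, but 0% to 0.641% on its canonical transcript, because another protein-coding transcript in the annotation has its 3′UTR over the canonical coding exon. All TUBB4B reads of the RNase T1 libraries lay in its 3′UTR, and 63.9% to 86.5% of those of the RNase I libraries.

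**Figure D2:**
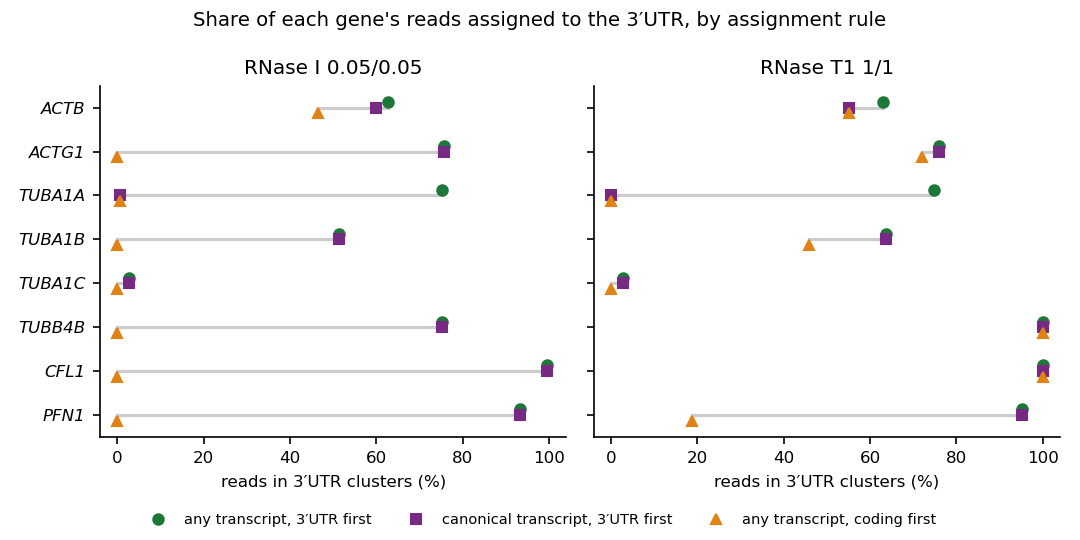
Share of each gene's reads assigned to the 3′UTR (percent, x axis) in RNase I 0.05/0.05 and RNase T1 1/1, under 3 rules of assignment. In RNase I 0.05/0.05 the wide clusters of ACTG1, TUBA1B, CFL1 and PFN1 moved from the 3′UTR to 0% when coding sequence came first, whereas CFL1 stayed at 100% in RNase T1 1/1 and the TUBA1A share was 75.1% with the 3′UTR first and 0.641% on the canonical transcript.

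**Figure D3:**
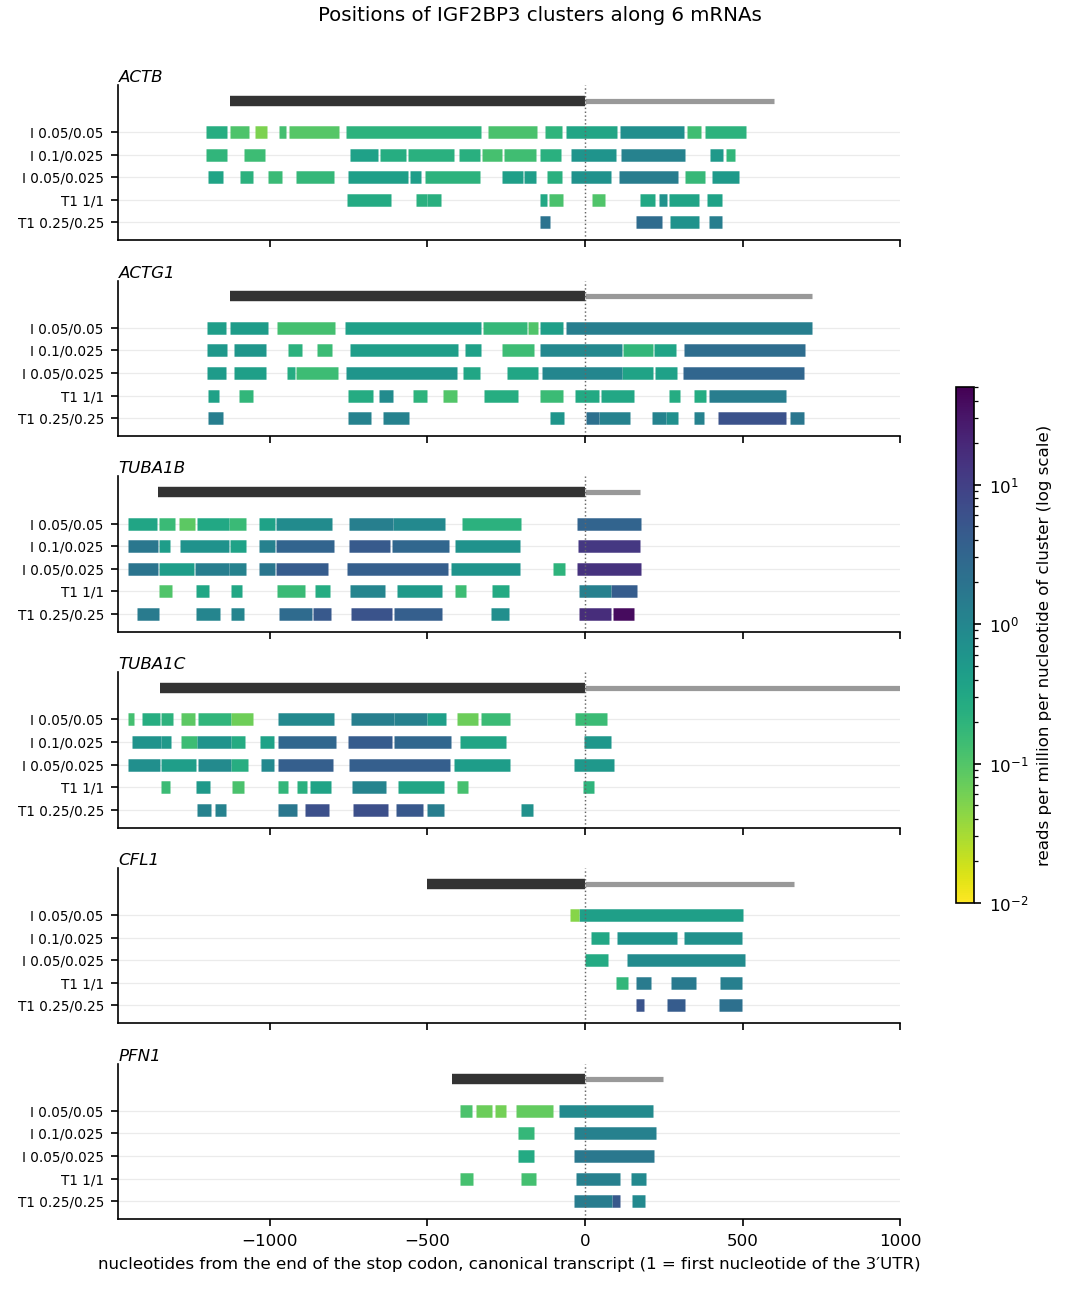
Clusters along 6 canonical mRNAs, in nucleotides from the end of the stop codon (dotted line). The top bar of each panel is the coding sequence (black, thick) and the 3′UTR (grey, thin, cut at 1000 nt for TUBA1C), each row is a library labelled with the enzyme and its concentrations in the lysate and on beads, and colour gives CPM per nucleotide of the cluster on a log scale. The TUBA1B 3′UTR was covered in all 5 libraries, the CFL1 clusters with most reads lay in the 3′UTR, and those of TUBA1C in the coding sequence.

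The zipcode was compared in each library as the first 54 nt after the ACTB stop codon. In ACTB, CGGAC began at position 2 after the stop codon and ACACCC at position 24. Of 18815 canonical 3′UTRs of at least that length, 2.06% had CGGAC in this window, 1.61% had ACACCC and 0.0585% (11) had both. ACTG1 had CGGAC at the same position and no ACACCC in the window, and the other 7 genes had neither. Clusters covered all 54 nt of ACTB in the 3 RNase I libraries, with 129 reads (22.6% of the 3′UTR reads) in RNase I 0.05/0.05, 69 (24.8%) in RNase I 0.1/0.025 and 57 (21.5%) in RNase I 0.05/0.025. In RNase T1 1/1 a cluster of 5 reads covered 33 nt of the window, and RNase T1 0.25/0.25 had no cluster there. The highest ACTB cluster was not the one over the zipcode in any of the RNase I libraries. It lay further downstream in the 3′UTR, with 366, 189 and 173 reads.
In ACTG1 the same window was covered in full in the 3 RNase I libraries and over 48 and 49 nt in RNase T1 1/1 and RNase T1 0.25/0.25, with 64 and 37 reads. The window was covered in full as well in genes with neither element, in TUBA1B and PFN1 in all 5 libraries and in TUBA1C in the 3 RNase I libraries. Only 8 of the 31 24-mers of the ACTB window occurred once in the genome, and the median number of places was 6. In RNase T1 1/1 the sequence of the zipcode cluster was found again at chr15:43988998-43989039, with equal counts of 5 reads and 5 conversion events and no annotated exon.

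Conversion events per read of the 9 genes were near those of the whole libraries with RNase I. They lay further from them, and in opposite directions, in the RNase T1 libraries. The values were 0.617 against 0.633 in RNase I 0.05/0.05, 0.647 against 0.644 in RNase I 0.1/0.025, 0.590 against 0.5999 in RNase I 0.05/0.025, 0.546 against 0.511 in RNase T1 1/1 and 0.491 against 0.547 in RNase T1 0.25/0.25. CFL1 stood out in the RNase T1 libraries. It had 0.640, 0.578 and 0.622 in the RNase I libraries but 0.367 in RNase T1 1/1 and 0.303 in RNase T1 0.25/0.25. The RNase T1 1/1 value was above that of 1.37% of 2479 protein-coding genes with at least 100 reads. Its cluster with the most reads there was 82 nt long, with 146 reads and 26 events (chr11:65854983-65855064, 0.178 per read), and its last 30 nt are the stretch shown above. The clusters on either side had 103 reads with 0.573 per read and 84 reads with 0.405 per read. In RNase T1 0.25/0.25 a cluster over the same place had 46 reads and 0.152 per read. At the 3′ end of TUBA1B the values were 0.419 and 0.431 per read in the RNase T1 clusters of 387 and 478 reads and 0.664 and 0.408 in the RNase T1 clusters just upstream, of 149 and 309 reads. The RNase I clusters, which spanned the whole 3′UTR and so a wider region, had 0.562 to 0.613. ACTB and TUBA1C lay at the other side in RNase T1 1/1, at 0.635 and 0.651 against a median of 0.512. In RNase T1 0.25/0.25 ACTB was at 0.451, below the 0.547 of the whole library, and TUBA1C was at 0.572.

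Between the electroeluted libraries of both enzymes, the reads of the 9 genes together were 1.89 times as high in CPM with RNase I 0.05/0.05 as with RNase T1 1/1 (interval 1.81 to 1.97), where the median gene was at 0.993. ACTB was 2.63 times as high (2.24 to 3.08), ACTG1 2.56 (2.35 to 2.79) and TUBA1C 2.37 (2.09 to 2.69). These 3 of the 8 genes with clusters were above 2-fold, and so were 15.3% of the 3240 genes with more than 10 CPM in all 5 libraries. None of the 8 was lower by more than 2-fold, against 10.0% of the genes. TUBA1A was at 1.85 and TUBA1B at 1.78. PFN1 was at 1.20 (1.04 to 1.38), TUBB4B at 1.14 (0.786 to 1.65) and CFL1 at 0.7498 (0.654 to 0.859). Counted only from clusters with at least 50% of their 24-mers once in the genome, ACTB turned to 0.653 (0.444 to 0.961, from 60 and 45 reads), whereas ACTG1 was at 2.46 and TUBA1B at 1.53. The ACTB reads of this count came from different places of the gene. The 45 RNase T1 1/1 reads were those of a cluster at chr7:5528572-5528708. The RNase I 0.05/0.05 cluster over it, of 213 reads, had 47.7% of its 24-mers once and was left out. TUBA1C moved to 5.83 (3.06 to 11.1, from 119 and 10 reads) and TUBB4B to 1.69 (1.099 to 2.59).
Between the crushed-gel libraries, RNase I 0.1/0.025 over RNase T1 0.25/0.25 gave 0.841 for the genes together (0.803 to 0.881) and RNase I 0.05/0.025 over the same library 1.01 (0.968 to 1.06). CFL1 was again on the RNase T1 side, at 0.484 (0.381 to 0.614) and 0.618 (0.488 to 0.783). It was the 1 gene of 8 lower by more than 2-fold in the first comparison, against 9.32% of genes, and 0 of 8 were lower in the second, against 11.1%. In neither was any of the 8 higher by more than 2-fold, against 18.1% and 17.8% of genes. TUBA1C was, however, at 2.32 (1.90 to 2.83) and 3.91 (3.21 to 4.77) when counted from clusters whose whole sequence occurred once, and at 4.31 and 8.76 with at least 50% of the 24-mers once, from 5 reads in RNase T1 0.25/0.25. By the latter count CFL1 was at 0.243 in the first comparison, where it kept 106 of 211 reads in RNase I 0.1/0.025 and 99 of 99 in RNase T1 0.25/0.25.

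Within RNase I, the α-tubulins and TUBB4B had more CPM in crushed-gel libraries when all clusters were counted. RNase I 0.05/0.025 over RNase I 0.05/0.05 gave 4.41 for TUBA1B (4.201 to 4.62), 4.06 for TUBA1C, 3.83 for TUBA1A and 3.14 for TUBB4B (2.34 to 4.23). The actins and their regulators stayed at 1.31 for ACTG1, 1.52 for CFL1, 1.57 for ACTB and 1.59 for PFN1. Above 2-fold were thus 4 of 8 genes, all of them tubulins, against 4.57% of the 3240 genes. With RNase I 0.1/0.025 the same 4 genes were above 2-fold, against 3.27%, and TUBA1B was at 3.69. None of the 8 was lower by more than 2-fold in either comparison, against 10.1% and 6.39% of genes. Between the 2 crushed-gel RNase I libraries, 0.1/0.025 over 0.05/0.025, the 8 genes lay between 0.744 and 0.851, and 0 of them passed 2-fold, against 3.98% of genes higher and 2.41% lower. From clusters whose whole sequence occurred once, TUBA1A turned to 7.53 in this comparison, from 478 and 53 reads. This counted clusters of 135 and 233 reads in RNase I 0.1/0.025. The RNase I 0.05/0.025 clusters over those places, of 121, 128 and 142 reads, had repeated sequence and were left out. With at least 50% of the 24-mers once, TUBB4B was at 0.101, CFL1 at 0.393 and TUBA1C at 0.493. For TUBB4B that cut left out a 3′UTR cluster of 64 reads in RNase I 0.1/0.025. It kept the cluster of 53 reads over the same place in RNase I 0.05/0.025. Of the CFL1 reads it kept 106 of 211 and 225 of 225. From all clusters TUBB4B was at 0.744 and CFL1 at 0.783.
The TUBA1A ratio changed with the clusters counted. From whole sequences found once it was 0.713 (0.530 to 0.957, from 53 and 262 reads) for RNase I 0.05/0.025 over RNase I 0.05/0.05, the reverse of 3.83, and 5.36 for RNase I 0.1/0.025. Of the 262 reads, 251 lay in a cluster at chr12:49185456-49185620. The clusters over that place in RNase I 0.05/0.025 (217 reads) and RNase I 0.1/0.025 (262 reads) had repeated sequence and were left out. These ratios thus compare largely different places of the gene. TUBA1C was at 8.68 and 5.15 by the same count, and TUBA1B at 5.14 and 3.77. That count kept 45.1% of the TUBA1C reads in RNase I 0.05/0.05, 96.4% in RNase I 0.05/0.025 and 67.2% in RNase I 0.1/0.025.
Within RNase T1, 0.25/0.25 over 1/1 gave 8.89 for TUBA1B (8.13 to 9.71), 7.88 for TUBA1C, 4.57 for TUBA1A and 4.12 for TUBB4B. ACTG1 was at 3.47 and ACTB at 2.53, so that 6 of 8 genes were above 2-fold, against 16.9% of genes. CFL1 at 1.84 and PFN1 at 1.43 were not. None was lower by more than 2-fold, against 21.1%. Counted from whole sequences found once, the calls of TUBB4B and TUBA1A were lost: TUBB4B was at 1.90 (0.998 to 3.63) and TUBA1A had 0 such reads in both libraries. TUBA1B ranked 15 among the 3240 genes by this ratio and 19 by that of RNase I 0.05/0.025. The α-tubulin genes share sequence, so their ratios may not be separate observations. TUBA1B alone, counted from clusters with at least 50% of their 24-mers once in the genome, gave 4.65 (4.37 to 4.95) and 10.0 (9.03 to 11.2). The same count left TUBB4B at 3.14 in the comparison of RNase I 0.05/0.025 but turned it to 0.316 in that of RNase I 0.1/0.025, from 10 and 93 reads, and CFL1 to 0.597 there, from 106 and 522 reads. It moved ACTB to 3.11 and 3.09 in the pair of RNase I comparisons, from 53 and 63 reads against 60, and TUBA1C to 3.17 in RNase T1, from 5 and 10 reads. Clusters over the same place passed this cut in some libraries and failed it in others, as given above for ACTB and TUBB4B.

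**Figure D4:**
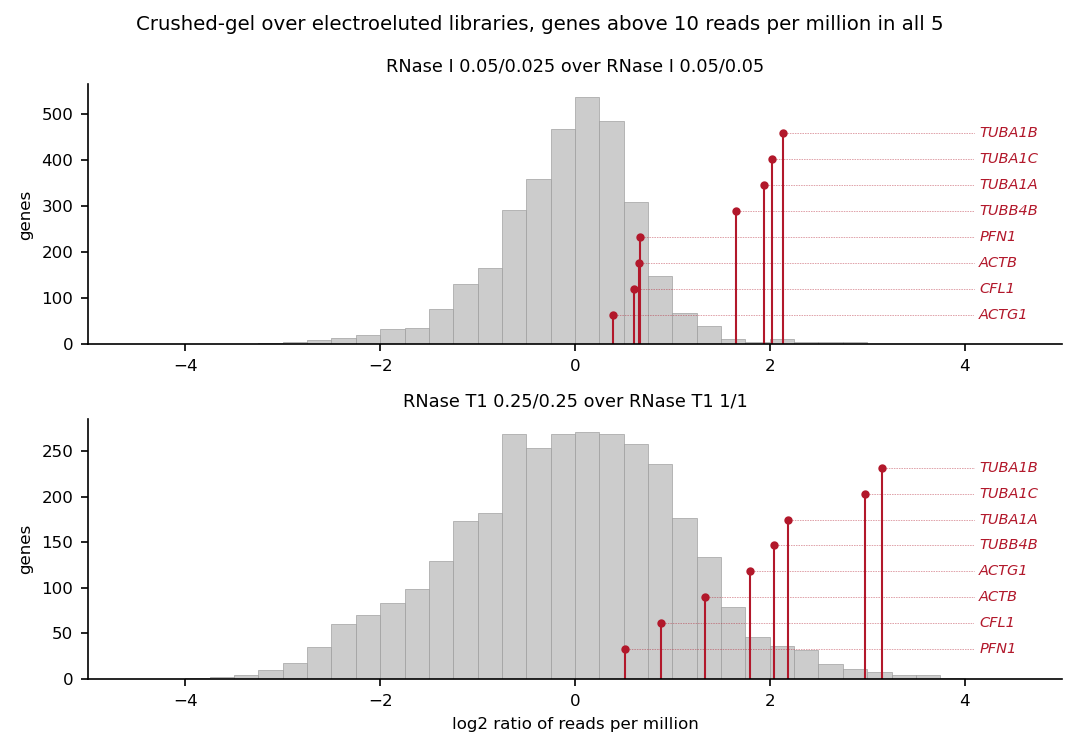
Log2 ratio of CPM between a crushed-gel and an electroeluted library of the same enzyme, for 3240 genes with more than 10 CPM in all 5 libraries (grey bars, number of genes) and for the cytoskeletal genes (red lines, height only separates the labels). TUBA1B, at ratios of 4.41 and 8.89, lay at the far right in both, and CFL1 and PFN1 lay within the bulk of the genes.

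How far a read can be placed in these genes was measured on the genome itself. Of the 30-mers of the 9 canonical mRNAs, 58.3% occurred once in the primary chromosomes on either strand. The coding sequence of TUBA1B was least distinct, with 16.96% of its 30-mers once and 60.5% at 3 or more places. Of these coding 30-mers, 61.0% were also in TUBA1A and 60.6% in TUBA1C. TUBA1A and TUBA1C had 26.8% and 28.1% once. The α-tubulin 3′UTRs were distinct, with 96.6% once in TUBA1B, 82.8% in TUBA1C and 75.3% in TUBA1A. ACTB was the reverse, with 58.1% of coding and 41.0% of 3′UTR 30-mers once, whereas ACTG1 had 68.4% and 69.7%. CFL1 had 80.2% and 81.6%, and PFN1 68.0% and 88.7%.

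**Figure D5:**
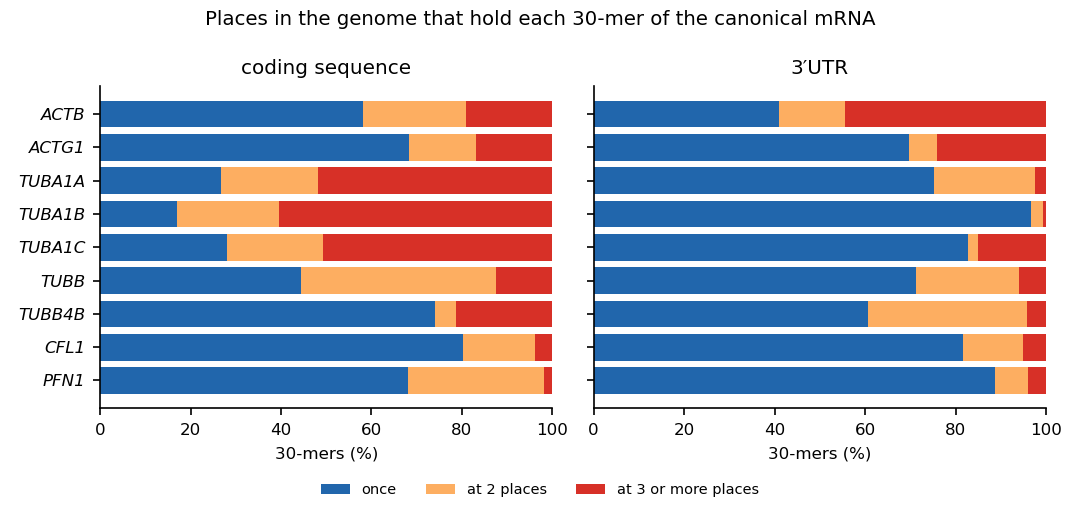
Percent of the 30-mers of each coding sequence (left) and 3′UTR (right) that occur once, at 2 places or at 3 or more places in the primary chromosomes, both strands counted. The α-tubulin coding sequences had 16.96% to 28.1% of their 30-mers once, their 3′UTRs 75.3% to 96.6%, and the ACTB 3′UTR 41.0%.

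Of the 309 clusters, 91, with 5352 reads, had a whole sequence that occurred more than once in the genome, and 218, with 27515 reads, did not. In 15 cases the same library held a cluster of identical sequence at another place. In 9 of these both places had equal reads and equal conversion events, and in 13 the reads differed by at most 1. The aligner settings for repeated hits are not given in the sources used here, and whether the same reads were counted at both places was not tested. TUBA1A and TUBA1B made up 9 of the 15 pairs, TUBA1A with TUBA1C 1 and TUBA1B with TUBA1C 1. The other 4 joined an actin to a place outside these genes, among them ACTA1, the skeletal muscle actin, and the pseudogene ACTG1P9. In TUBA1A no more than 1.41% of the reads of any library lay in clusters with at least 50% of their 24-mers once in the genome. In TUBA1C the range was 1.42% to 10.2%, in ACTB 0% to 25.3%, in TUBA1B 55.7% to 73.9% and in ACTG1 85.8% to 89.97%. The α-tubulin reads of RNase I 0.05/0.05 fell from 5209 to 4752 when each sequence was counted once. The fall was smaller in RNase I 0.1/0.025 (6279 to 6265) and 0.05/0.025 (6252 to 6219), and in RNase T1 1/1 (1334 to 1293) and 0.25/0.25 (1683 to 1668). That count joins only clusters of identical sequence. From clusters with at least 50% of their 24-mers once, 1847 of the 5209 reads remained. Whether reads at TUBA1A and TUBA1C came from those mRNAs or from TUBA1B cannot be told apart by these counts.

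TUBB, a widely expressed β-tubulin, had no cluster in any of the 6 libraries. The deposited values cover called clusters only, so TUBB reads that formed no cluster cannot be seen. For scale, 3 reads came to 1.27 CPM in RNase I 0.05/0.05, 2.59 CPM in RNase T1 1/1 and 16.4 CPM in RNase T1 0.25/0.25. These values set no upper limit for TUBB. On the primary chromosomes its coding sequence was more distinct than those of the α-tubulins, with 44.5% of coding and 71.2% of 3′UTR 30-mers once. However, 7 of the 430 further sequences of the hg38 genome held at least 50% of its 30-mers, and no such sequence did for the other 8 genes. With those sequences counted, 0% of the coding and 3′UTR 30-mers of TUBB occurred once. Around it, within 1 Mb on either side on chromosome 6, 2 of 76 protein-coding genes (2.63%) had a cluster in an IGF2BP3 library. Around the other genes the share was 35.1% to 65.5%, and 46.7% of all 20046 protein-coding genes had a cluster. The part of the further sequences in the absence of TUBB clusters was not tested.

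The IgG library had 25 clusters, of which 2 lay in these genes with 7 reads each (exact interval 2.81 to 14.4). The TUBA1B cluster (chr12:49127799-49127866, 5 conversion events) lay near the 3′ end of the 3′UTR and overlapped the stretch printed above, where IGF2BP3 clusters had 387 to 2036 reads. The ACTG1 cluster (chr17:81510101-81510147, 3 events) lay in the 3′UTR under IGF2BP3 clusters of 228 to 2528 reads. By the criteria above TUBA1B also passed as a target in the IgG library, where 7 reads came to 21605 CPM with 0.714 events per read, and ACTG1 did not, with 0.429. Each made up 2.16% of the IgG cluster reads, against 728 to 6473 CPM for TUBA1B and 551 to 1913 CPM for ACTG1 in the IGF2BP3 libraries. All 9 genes together made up 4.32% of the IgG cluster reads, against 0.242% to 1.27% in the IGF2BP3 libraries. No other gene of the 9, and none of the cytoskeletal lists below, had an IgG cluster.

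Other genes of the pathways were counted in lists of 40 genes on the actin side and 21 on the tubulin side. Of the actin list 39, 36, 36, 36 and 27 genes had a cluster and 34, 31, 34, 25 and 21 were targets, in the order of libraries above. The share of targets among genes with a cluster, 69.4% to 94.4%, was above that of all genes in 4 of the libraries and below it in RNase T1 0.25/0.25 (77.8% against 80.3%). Targets in all 5 libraries were 18 of the 40, and TWF2, a twinfilin, had no cluster. The highest in RNase I 0.05/0.05 were EZR, a linker of actin to the membrane, at 1368 CPM, the capping protein subunit CAPZA1 at 980, the cofilin phosphatase SSH1 at 659 and the cyclase-associated protein CAP1 at 618.
The tubulin list had 17, 14, 18, 15 and 9 genes with a cluster and 9, 9, 11, 7 and 9 targets. The share of targets was 52.9%, 64.3%, 61.1%, 46.7% and 100%, against 45.0%, 63.3%, 70.1%, 49.3% and 80.3% of all genes, and so was near or below that of all genes in RNase I 0.1/0.025, RNase I 0.05/0.025 and RNase T1 1/1. Targets in all 5 libraries were 6 of the 21, and TUBB2B and the tubulin cofactor TBCE had no cluster. The highest were the microtubule end-binding gene MAPRE1 at 616 CPM, STMN1, which binds free tubulin, at 243, the kinesin KIF5B at 215 and MAP4 at 153. STMN1 had 920.8 CPM in RNase T1 0.25/0.25 and 264 in RNase T1 1/1, whereas KIF5B had 323 and 394.

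The genes whose CPM pattern over the 5 libraries lay nearest to that of ACTB were RPL22, a ribosomal protein gene, with a distance of 0.0664 in centred log2 CPM, TPD52L2 with 0.163 and MTCYBP18 with 0.181, among 3240 genes. RPL22 had 273, 362, 443, 111 and 274 CPM. The nearest of the other cytoskeletal genes was ACTG1 at 0.595, and the farthest were TUBA1B at 1.85 and CFL1 at 1.81. The pattern was described over 5 libraries that differ in depth.

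The 4 tetramers reported for this protein were counted on the sense strand by the share of clusters that held them. The first, CAUC, was in 52.2%, 51.6%, 46.0%, 41.3% and 35.4% of the clusters of these genes, against 29.1%, 28.9%, 27.8%, 22.4% and 23.8% of all clusters. CAUA was lower than in all clusters in each library, at 9.38% to 16.7% against 21.1% to 23.6%. CAUU was in 34.8%, 40.6%, 39.7%, 23.8% and 31.25%, against 38.5%, 40.6%, 39.9%, 35.4% and 39.3%. CAGU was at 28.99%, 29.7%, 30.2%, 12.7% and 31.25%, against 33.3%, 33.7%, 32.7%, 11.0% and 18.1%. These shares came from 20 of 69, 19 of 64, 19 of 63, 8 of 63 and 15 of 48 clusters. The share was above that of all clusters in RNase T1 0.25/0.25 and near it in RNase T1 1/1. In the RNase I libraries CAGU was lower than in all clusters. From clusters whose whole sequence occurred once, however, it was at 34.7% to 36.2% there, above all clusters. The RNase I side thus changed with the clusters counted, and a difference between the enzymes was not tested. Clusters of these genes were longer, with a median of 69 nt against 54 nt in RNase I 0.05/0.05 and 45 nt against 33 nt in RNase T1 1/1, and longer clusters hold more tetramers of any kind. The part of cluster length and of base composition in these shares was not tested.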

How the data were processed

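The authors removed duplicate reads by unique molecular identifier (UMI-tools 1.1.1), trimmed with Trimmomatic 0.30, aligned with Bowtie 0.12.7 to GRCh38.p13, allowing up to 3 mismatches, and called clusters separately in each library with PARalyzer. The deposited values are counts of reads, conversion events and non-conversion events per cluster, not normalized. The deposited mode score, a fraction, was not used.

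From these counts, CPM, ratios and exact Poisson or Wilson 95% intervals were derived with scipy 1.17.1 and pandas 2.3.3, under Python 3.11.15 with numpy 2.4.6, and drawn with matplotlib 3.10.9. Gene models were those of GENCODE release 44. A cluster over several features was given to the 3′UTR before coding sequence and 5′UTR. Exon 24-mers and 30-mers were looked up on both strands of 25 primary and 430 further hg38 sequences. All 244645 cluster sequences matched the genome. The calculations were checked on simulated data. The genes, lists and thresholds were chosen with earlier results of these data known. All 9 genes were named, with the 4 highest of each list, any listed gene with an IgG cluster, genes sharing a cluster and the 3 patterns nearest to ACTB. Cluster reads, used as the total, are not library sizes.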

Additional observations from a re-analysis of the deposited data

How the results depend on the processing

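No paired analysis was possible because there was 1 library per condition. Over 26 results and 99 alternatives, 42 values stayed within the counting interval, or within 1.5 times for a count, and 57 moved. Among the 57 are the summed CPM over a smaller total and the conversion events per T observation. These differ from the main value by definition, so the tally overstates how far the results depend on processing. Values follow in the order RNase I 0.05/0.05, 0.1/0.025, 0.05/0.025, RNase T1 1/1 and 0.25/0.25. The reads of the genes together, at 4558, 10550.2, 12707, 2417 and 12541 CPM, were 5374, 12473, 15256, 2878 and 15031 relative to reads on exons of protein-coding genes, 3804, 8757, 11273, 1903 and 9405 from clusters whose whole sequence occurred once in the genome, and 2559, 4685, 6170, 1558 and 7405 from clusters with at least 50% of their 24-mers once. Counting each sequence once gave 4365 in RNase I 0.05/0.05. The 3′UTR share became 4.16%, 15.1%, 15.3%, 49.2% and 43.3% with coding sequence first, 54.8%, 45.4%, 45.9%, 62.9% and 58.2% on canonical transcripts, 54.03%, 47.6%, 46.9%, 65.8% and 60.01% with reads divided by length, and 88.2%, 90.2%, 87.5%, 90.6% and 91.2% from clusters with at least 50% of their 24-mers once. With the whole sequence once it was 68.8% and 61.7% in the first pair and 79.7% and 76.6% in RNase T1. Conversion events were 0.0781, 0.0798, 0.0711, 0.0653 and 0.0593 of all T observations, a different scale, and with at least 50% of the 24-mers once they were 0.613 per read in RNase I 0.1/0.025, 0.506 in RNase T1 1/1 and 0.457 in RNase T1 0.25/0.25. Above 0.75 events per read the targets were 0, 4, 3, 6 and 5 of the 9 genes, and 5 in RNase T1 0.25/0.25 when a minimum of 20 reads replaced that of 10 CPM. The ratio of RNase I 0.05/0.05 to RNase T1 1/1 was 2.00 from whole sequences found once and 1.64 from clusters with at least 50% of their 24-mers once. The share of 24-mers found once was 48.3%. The share of 3′UTR reads in clusters over the first 54 nt, 92.4% in RNase I 0.05/0.05, was 99.9% with at least 50% of the 24-mers once. In RNase T1 1/1 it was 25.1% and 25.5%. A cluster that reached the window was counted with all its reads, such as the ACTG1 cluster of 779 nt and 2528 reads in RNase I 0.05/0.05. The causes were not tested, and the alternatives by 24-mers and by counting each sequence once were chosen after seeing the data. Reads of TUBA1A, TUBA1C and most of ACTB limit what can be placed.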
